A study of Mus musculus with 21 samples.

Results

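Abca1, Abcg1, Apoe, Lpl, Cd36, Fabp4, Fabp5, Plin2, Gpnmb and Pparg are 10 genes that bring lipid into macrophages, carry or store it inside the cell, or move it out again. They were taken from the count table by gene symbol, and all 10 were found among its 23420 symbols. RNA was measured in 21 libraries of sorted inflammatory monocytes (IMs) from 2 mouse models of lung squamous cell carcinoma (LUSC). Bone marrow (BM) IMs came from healthy, tumor-free FVB mice (n = 3) and DBA2 mice (n = 3). Tumor-infiltrating inflammatory monocytes (TIMs) of FVB mice came from primary lung tumors (n = 5) and from lymph node (LN) metastases (n = 5) of KAL-LN2-E1 cells, called LN2E1 here, of which 500000 per mouse were placed into the lung. TIMs of DBA2 mice came from lungs with LN4K1 tumors (n = 5), for which 300000 cells per mouse went in through a vein. The mice carried no engineered allele named in the labels, and the methods describe adult animals; the time from injection to collection is not given in the sources used here. Cell line, strain, route of injection and tissue changed together between the models, so they cannot be told apart, and every TIM group also differed from its BM control in tissue and in tissue digestion. The labels do not say that libraries of a group came from separate mice, and the study's methods speak of technical replicates, so p-values measured only the spread between these libraries, which may be technical.

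Macrophages take up fatty acids and modified lipoproteins through scavenger receptors such as CD36, chaperone the fatty acids with small binding proteins, and keep neutral lipid in droplets coated by perilipins. Cholesterol leaves the cell through the transporters ABCA1 and ABCG1, of which ABCA1 loads lipid-poor apolipoproteins, among them apolipoprotein E. The nuclear receptors LXR and PPARγ sense sterols and fatty acids and switch on many of these genes, and macrophages loaded with lipid are a familiar sight in tumors, in fat tissue and in the artery wall. The sorted cells carried CD45, CD11b and high Ly6C and lacked Ly6G, which is a monocyte gate, and the methods describe removal of Siglec-F+ cells, such as alveolar macrophages and eosinophils, for lung tissue, so they are called IMs and TIMs here, not macrophages. Ly6c2, which encodes part of the sorted Ly6C antigen, was 2434 to 3600 CPM (counts per 1e+06 counts) in FVB BM IMs and 974 to 1676 CPM in LN2E1 TIMs, and 2509 to 2728 CPM in DBA2 BM IMs and 1220 to 1688 CPM in lung TIMs. Ly6c2 and Ly6c1 fell in all 3 TIM comparisons, beside the changes of the members. Ccr2 lay between 704 and 2918 CPM over the 21 libraries. The macrophage complement gene C1qa lay between 1.77 and 55.1 CPM.

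The promoters of 3 members are shown, those of the efflux pump Abca1 and the receptor Cd36, which were both higher in LN2E1 TIMs than in the other groups, and that of Gpnmb, which was high in 1 group only. The sequences are from RefSeq on GRCm38.p6, written 5′ to 3′ on the strand of the gene, with a searched motif in capitals.
Abca1, chr4:53159896-53160145, minus strand, the 250 bases before the start, outside the gene: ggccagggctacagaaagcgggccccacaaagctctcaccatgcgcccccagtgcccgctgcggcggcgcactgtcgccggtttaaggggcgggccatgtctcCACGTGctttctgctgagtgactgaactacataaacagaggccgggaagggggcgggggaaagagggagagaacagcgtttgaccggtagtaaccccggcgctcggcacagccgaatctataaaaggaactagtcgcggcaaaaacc
Cd36, chr5:17835897-17836146, minus strand, the 250 bases before a RefSeq start that lies in an intron of the longer GENCODE gene: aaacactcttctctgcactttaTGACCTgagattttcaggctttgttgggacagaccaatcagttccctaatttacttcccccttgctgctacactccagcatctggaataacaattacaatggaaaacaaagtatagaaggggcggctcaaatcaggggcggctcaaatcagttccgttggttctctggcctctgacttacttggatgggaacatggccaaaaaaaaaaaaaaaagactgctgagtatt
Gpnmb, chr6:49036268-49036532, plus strand, 250 bases before the start and 15 after it, upstream of the GENCODE gene: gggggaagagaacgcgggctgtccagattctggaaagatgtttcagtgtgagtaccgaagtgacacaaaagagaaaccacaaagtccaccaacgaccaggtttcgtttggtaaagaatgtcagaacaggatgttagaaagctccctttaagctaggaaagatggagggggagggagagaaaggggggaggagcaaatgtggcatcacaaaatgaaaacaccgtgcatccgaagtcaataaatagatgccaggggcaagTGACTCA
The capitals mark CACGTG, the E-box read by MiT/TFE and USF factors, in Abca1, the nuclear receptor half-site AGGTCA on the opposite strand in Cd36, and the AP-1 site TGACTCA in Gpnmb. Among 32851 mouse promoter windows of 300 bases, 7.15% held CACGTG, 16.3% held AGGTCA on either strand and 5.2% held TGACTCA. Paired half-sites of the DR1 and DR4 kinds, read by PPAR and LXR dimers, were searched for only as exact repeats of the nuclear receptor half-site. Such exact pairs were in 0.0396% and 0.0152% of windows and in none of the members' windows. Pairs with mismatches, which the windows of Abca1 or other members may hold, were not searched for. RefSeq windows were found for 6 of the 10 members (10 windows); beside the 3 shown, Plin2 held AGGTCA and CACGTG, Pparg held AGGTCA at 2 of its 3 starts and Apoe held none of these letters at its 3. A match is a description of the letters and not a bound site.

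All members lie on chromosomes 3 to 8 and 17 of GRCm38, and the GENCODE annotation puts no exon of another gene over their exons. Fabp4 (chr3:10204088-10208576, minus strand) and Fabp5 (chr3:10012548-10016607, plus strand) share chromosome 3. Abca1 (chr4:53030787-53159895, minus) and Plin2 (chr4:86648386-86670060, minus) share chromosome 4, Cd36 is at chr5:17781690-17888801 (minus), and Gpnmb (chr6:49036546-49070929, plus) and Pparg (chr6:115360951-115490399, plus) share chromosome 6. Apoe lies at chr7:19696109-19699188 (minus), Lpl at chr8:68880491-68907448 (plus) and Abcg1 at chr17:31057675-31117988 (plus). Reads on Fabp5 could have been split with 2 other genes whose transcripts match it at 98.3% and 97.3% over 409 and 408 bases, and those on Plin2 with 1 gene that matches at 96.1% over 259 bases, so levels of Fabp5 and Plin2 are uncertain to that extent. Total counts ran from 80772922 to 101043568 per library, and 3 counts, the most that a library listed at 0 could hide, stood for 0.0268 to 0.0405 CPM, which covers counting error only. Libraries of a group correlated at a mean r between 0.889 and 0.983 with their group mates over well-expressed genes, and the lowest values were those of LN TIM replicate 1 (0.889, with the fewest genes at 10 or more counts, 11047) and LN4K1 lung TIM replicate 3 (0.907), so the calls in these groups are also given without them. No pair of libraries agreed within counting noise.

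Per kilobase of transcript, the lipoprotein gene Apoe and the droplet coat gene Plin2 stood far above the other members in every group. Apoe had between 777 and 3203 CPM per kb as a group mean and ranked 12th to 50th among 19347 genes with a known coding transcript length, and Plin2 had 217 to 471 CPM per kb and ranked 151st to 294th. The next highest group means were 95.7 CPM per kb for Cd36 in LN TIMs and 33.5 for Fabp5 in primary tumor TIMs. Abca1, which has a long transcript, reached no more than 4.18 CPM per kb, and Gpnmb no more than 6.30. Cd36 and Gpnmb moved furthest in rank. Cd36 went from 8354th in FVB BM IMs and 8531st in DBA2 BM IMs to 895th in LN TIMs, and Gpnmb from 13599th in DBA2 BM IMs to 5817th in primary tumor TIMs.

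**Figure D1:**
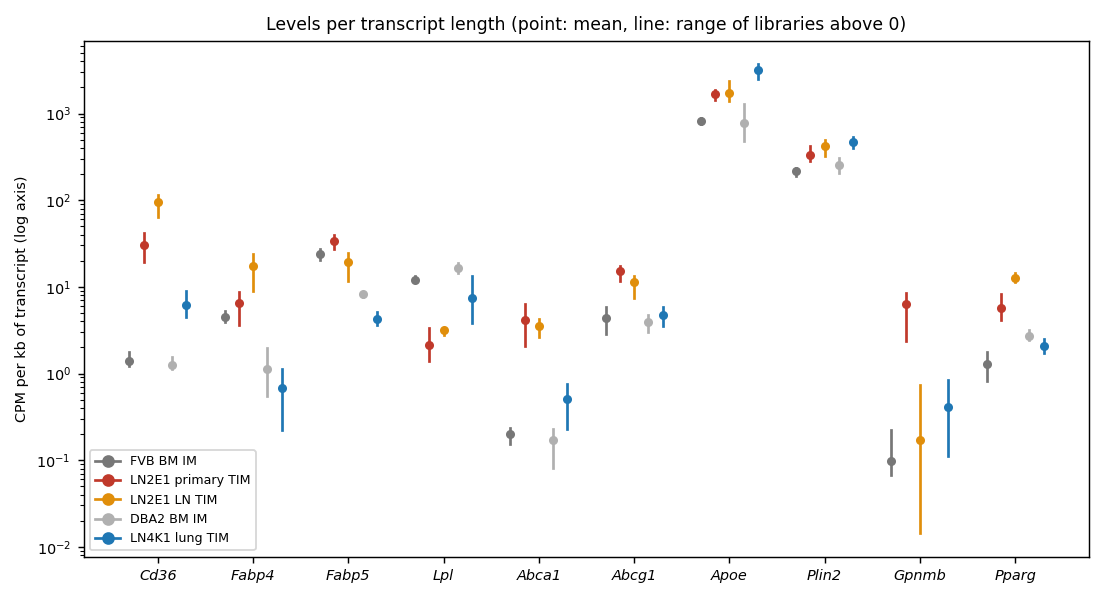
Level of each gene in CPM per kb of its longest coding transcript, on a log axis, in the 5 groups; points are group means and lines span the libraries with a count above 0. The group means of Apoe and Plin2 lie above 200 in all groups, and Gpnmb in DBA2 BM IMs is not drawn because all 3 libraries had 0 counts.

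CD36 takes up long-chain fatty acids and oxidized lipoproteins, and Cd36 was higher in TIMs than in BM IMs at every site. It was 4.11, 6.09 and 4.18 CPM in FVB BM IMs and 3.81, 3.81 and 5.22 CPM in DBA2 BM IMs. In primary tumor TIMs it was 142, 120.1, 66.3, 70.1 and 113 CPM, in LN TIMs 216, 379.9, 372, 393 and 265 CPM, and in LN4K1 lung TIMs 21.6, 15.1, 30.1, 21.03 and 16.04 CPM. The 3 TIM groups and the BM IMs did not overlap, in the order LN, primary tumor, lung and BM, and only the 2 strains of BM IMs did (exact permutation p = 0.5). Cd36 rose by a log2 fold change of 4.39 (SE 0.32, adjusted p = 3.98e-06) in primary tumors, 6.08 (SE 0.30, adjusted p = 6.47e-07) in LNs and 2.20 (SE 0.27, adjusted p = 0.000364) in LN4K1 lungs. It was higher in LN than in primary tumor TIMs by 1.68 (SE 0.24, adjusted p = 0.00196).

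**Figure D2:**
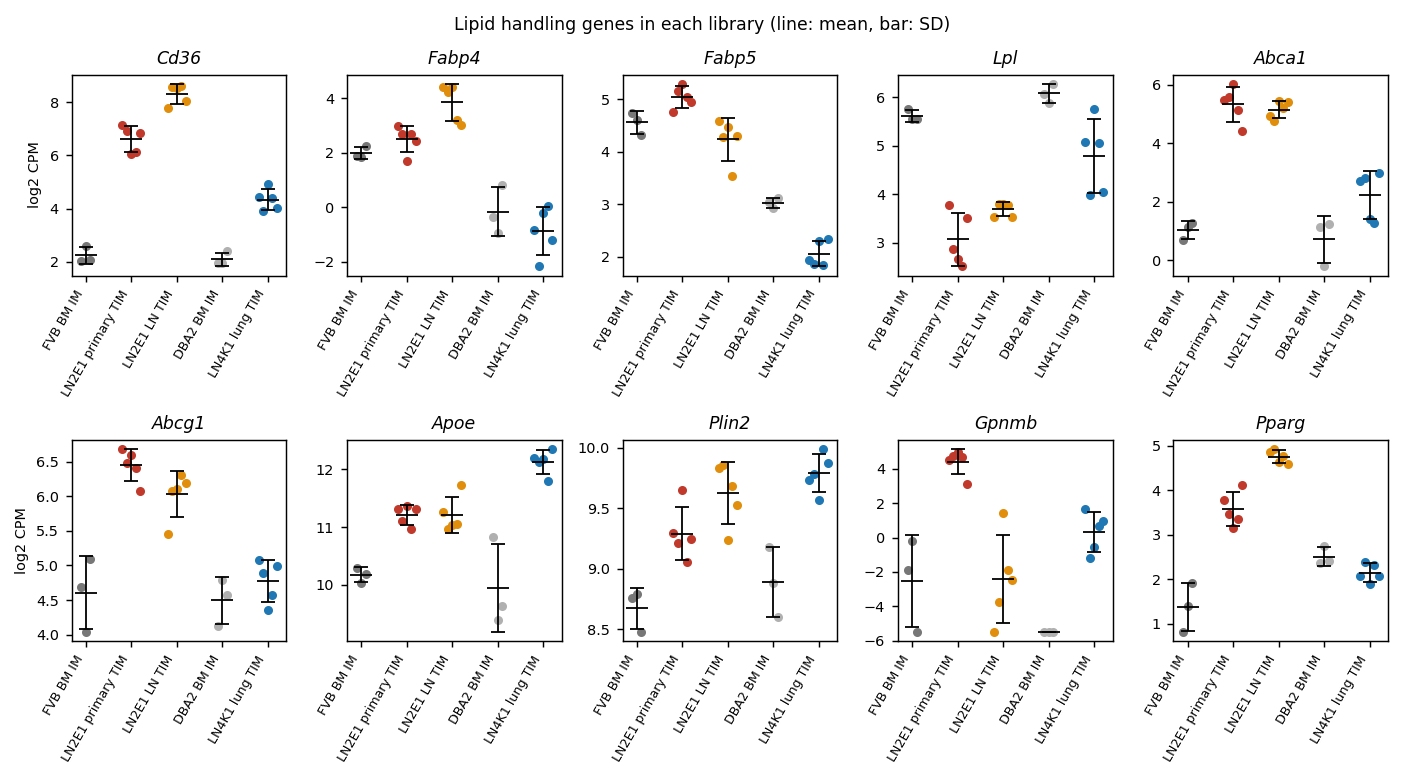
Log2 CPM (prior count 2) of each gene in each of the 21 libraries by group, with the group mean as a line and the SD as a bar. Cd36 and Pparg are highest in LN TIMs, Gpnmb in primary tumor TIMs, Apoe in LN4K1 lung TIMs, and Lpl in BM IMs.

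The binding proteins that carry fatty acids in the cytosol, FABP4 and FABP5, had their higher levels in FVB mice. Fabp4 was 21.3, 18.4, 21.04, 9.14 and 8.11 CPM in LN TIMs, between 3.22 and 7.85 CPM in primary tumor TIMs and between 3.57 and 4.68 CPM in FVB BM IMs. In DBA2 mice it was between 0.499 and 1.75 CPM in BM IMs and between 0.201 and 1.01 CPM in LN4K1 lung TIMs, and these ranges overlapped. Against BM IMs, Fabp4 rose in LNs (log2 fold change 1.97, SE 0.41, adjusted p = 0.00412) and did not pass in primary tumors (0.53, SE 0.28, adjusted p = 0.13) or lungs (−0.81, SE 0.68, adjusted p = 0.436). Without primary tumor TIM replicate 3 the primary tumor value was 0.68 with an adjusted p of 0.0207. Fabp5 was 27.1, 35.7, 39.2, 32.8 and 30.6 CPM in primary tumor TIMs against 26.8, 24.2 and 20.02 CPM in FVB BM IMs, where the lowest tumor library was just above the highest BM library. It rose there by only 0.47 (SE 0.15, adjusted p = 0.0199), and lost the call without FVB BM IM replicate 3 (0.37, adjusted p = 0.0579). In DBA2 mice Fabp5 fell, from 8.20, 7.55 and 8.64 CPM in BM IMs to 3.84, 3.63, 4.92, 3.57 and 5.03 CPM in lung TIMs (log2 fold change −1.03, SE 0.20, adjusted p = 0.00461), and it did not pass in LNs (−0.29, SE 0.25, adjusted p = 0.401). Adipocytes are the best-known source of Fabp4. Of 5 adipocyte markers the summed level was between 0 and 1.5 CPM in every library, with Lep at 0 counts throughout. The 6 endothelial markers summed to 12.015 to 25.8 CPM in primary tumor TIMs and 16.3 to 31.4 CPM in LN TIMs. Their sum was 4.69 to 9.81 CPM in FVB BM IMs and 8.69 to 9.598 CPM in DBA2 BM IMs. In lung TIMs it was 6.87 to 9.42 CPM. Of these markers, 3 rose and 1 fell in primary tumors, 2 rose in LNs, and 2 rose and 1 fell in lungs. The part of adipocytes and endothelium in the levels of Fabp4 and Cd36 was not tested.

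Lipoprotein lipase frees fatty acids from triglyceride-rich lipoproteins, and Lpl was the member that was lower in TIMs than in BM IMs in all 3 comparisons. It was 54.3, 46.7 and 46.8 CPM in FVB BM IMs against 13.7, 7.26, 6.30, 5.68 and 11.4 CPM in primary tumor TIMs and 11.5, 13.8, 13.9, 13.8 and 11.5 CPM in LN TIMs. It was 67.2, 59.4 and 77.8 CPM in DBA2 BM IMs against 33.7, 15.8, 54.5, 33.4 and 16.6 CPM in lung TIMs. Every TIM library lay under every BM library of its strain. Lpl fell at each site, with log2 fold changes of −2.49 (SE 0.27, adjusted p = 4.93e-05) in primary tumors, −1.93 (SE 0.16, adjusted p = 1.19e-05) in LNs and −1.22 (SE 0.37, adjusted p = 0.0391) in LN4K1 lungs. The call in lungs was lost without any one of 7 of the 8 libraries compared, with adjusted p-values from 0.0595 without lung TIM replicate 2, 0.0632 without lung replicate 1, 0.0662 without lung replicate 5, 0.0697 without lung replicate 4, 0.0824 without DBA2 replicate 2 and 0.0963 without DBA2 replicate 1 to 0.131 without DBA2 replicate 3. Without lung TIM replicate 3, which had the highest Lpl of its group, it was −1.53 with an adjusted p of 0.00262. BM IM libraries also carried RNA of neutrophil precursors (7 markers summing to between 2811 and 4955 CPM, against 14.99 to 494 CPM in TIM libraries) and eosinophils (5 of 6 markers in the table, 431 to 1142 CPM, against at most 66.2 CPM in TIM libraries), which moved with every TIM comparison. Macrophage markers (8 of 9 in the table) summed to 975 to 1847 CPM in TIM libraries against 602 to 801 CPM in BM libraries, and the sum was mostly Cd68 and Fcgr1, which rose in all 3 comparisons. Of these, 3, 2 and 2 rose in primary tumors, LNs and lungs and C1qc fell in lungs, while Trem2 and Mrc1 overlapped between TIM and BM libraries. Dendritic cell markers summed to 73.8 to 181 CPM against 17.8 to 55.3 CPM, with 5, 4 and 1 of 6 higher and 1 lower in lungs. The methods describe removal of Siglec-F+ cells, which include eosinophils, for lung tissue. The legend of the paper's gating figure, which covers tumor and BM sorts, also places IMs in a Siglec-F-negative gate. The part of these other cell types in the changes of the members was not tested. In sorted bulk RNA, fewer cells of a type and less RNA per cell cannot be told apart.

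ABCA1 and ABCG1 pump cholesterol out of the cell. Abca1 was 44.7, 48.0, 65.4, 34.9 and 21.5 CPM in primary tumor TIMs and 30.1, 27.1, 43.3, 37.1 and 42.5 CPM in LN TIMs, against 1.59, 2.17 and 2.40 CPM in FVB BM IMs. It was 6.46, 6.95, 2.62, 2.38 and 7.76 CPM in lung TIMs against 2.16, 0.838 and 2.33 CPM in DBA2 BM IMs, where lung TIM replicates 3 and 4 were close to the BM libraries. Abca1 rose by 4.36 (SE 0.39, adjusted p = 1.29e-05) in primary tumors and 4.13 (SE 0.28, adjusted p = 3.49e-06) in LNs. In lungs the log2 fold change was 1.48 (SE 0.53, adjusted p = 0.0699), and it passed without lung TIM replicate 3 (1.65, adjusted p = 0.0235). Abcg1 had the same order of groups with smaller steps. It was between 67.5 and 103 CPM in primary tumor TIMs, between 43.7 and 78.7 CPM in LN TIMs and between 16.5 and 33.9 CPM in the BM IMs of both strains and the lung TIMs. Its log2 fold changes were 1.77 (SE 0.24, adjusted p = 0.000173) in primary tumors, 1.38 (SE 0.27, adjusted p = 0.00287) in LNs and 0.20 (SE 0.21, adjusted p = 0.539) in lungs. Neither pump passed between LN and primary tumor TIMs (adjusted p = 0.61 for Abca1 and 0.144 for Abcg1).

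Apolipoprotein E, which macrophages secrete and which accepts the exported cholesterol, was one of the most abundant messages of these cells and rose at each site. Apoe was 1257, 1052 and 1168 CPM in FVB BM IMs, and 2558, 2193, 2627, 2006 and 2546 CPM in primary tumor TIMs. In LN TIMs it was 2468, 1989.9, 2097, 2114 and 3381 CPM. In DBA2 mice it was 1810.5, 674 and 798 CPM in BM IMs and 4678, 4469, 4612, 3569 and 5224 CPM in lung TIMs. No TIM library overlapped its BM controls, and lung TIMs were above both LN2E1 groups (exact permutation p = 0.00794 against LN TIMs, the smallest that 5 against 5 libraries allow). The log2 fold changes were 1.02 (SE 0.12, adjusted p = 6.32e-05) in primary tumors, 1.06 (SE 0.18, adjusted p = 0.00153) in LNs and 1.97 (SE 0.32, adjusted p = 0.00182) in lungs. Apoe therefore differed from both pumps in being highest in LN4K1 lung TIMs, where the pumps were lowest among TIMs.

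Perilipin 2 coats lipid droplets and is a common measure of them. Plin2 was 432, 442 and 357 CPM in FVB BM IMs, between 531 and 804 CPM in primary tumor TIMs and between 604 and 929 CPM in LN TIMs, and it was 580.0, 472 and 388 CPM in DBA2 BM IMs and between 760.3 and 1017 CPM in lung TIMs. The BM and TIM ranges of each strain did not overlap, but the changes were under 2-fold in each case. They were 0.61 (SE 0.14, adjusted p = 0.0041) in primary tumors, 0.97 (SE 0.16, adjusted p = 0.00103) in LNs and 0.81 (SE 0.15, adjusted p = 0.00425) in lungs on the log2 scale.

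GPNMB is a glycoprotein of lysosomes and phagosomes that marks lipid-laden and foamy macrophages. Gpnmb was close to absent from BM IMs, with 22, 82 and 0 counts in the 3 FVB libraries and 0 counts in each DBA2 library. Primary tumor TIMs had 2142, 2424, 2686, 2375 and 749 counts, which is 23.1, 27.4, 31.2, 26.2 and 8.71 CPM. LN TIMs had 0, 4, 229, 20 and 13 counts, and lung TIMs 270, 39, 48, 151 and 172 counts. Gpnmb rose by 6.01 (SE 0.99, adjusted p = 0.000681) in primary tumors, and it was lower in LN than in primary tumor TIMs (−5.18, SE 1.17, adjusted p = 0.0159) with no overlap. In LNs against BM IMs the value was 0.83 with an SE of 2.002 (adjusted p = 0.785), and without LN TIM replicate 3, which held most of the reads, it was −1.64 (adjusted p = 0.534). In lungs the mean of 1.53 CPM was at least 49.8-fold higher than the limit of 3 counts per library set for the DBA2 BM IMs. Whether the Gpnmb gene itself differs between FVB and DBA2 mice was not tested, so low levels in DBA2 libraries may not reflect cell state or site. In the tests of primary tumors, of lungs and of LN against primary tumor TIMs, Gpnmb entered only through the group where it was higher. In LNs against BM IMs its counts were low in most libraries of both groups. Gpnmb had no value under a filter of 10 counts in every library, so its p-values are not counted with those of the other members. The size of its changes was uncertain: leaving out 1 library gave 5.41 to 7.64 in primary tumors (7.64 without FVB replicate 2) and −7.66 (without LN replicate 3) to −4.86 between LN and primary tumor TIMs, where DESeq2 with shrinkage gave −0.70. Primary tumor TIM libraries also carried RNA of fibroblasts (6 markers summing to between 365 and 1112 CPM, against at most 87.1 CPM elsewhere) and lung epithelium (7 markers, 149 to 932 CPM, against at most 108 CPM elsewhere), although the gate required CD45, and their part in the Gpnmb level was not tested. Alveolar macrophage markers (8 of 10 in the table) summed to between 75.3 and 128 CPM in primary tumor TIMs and between 188 and 255 CPM in FVB BM IMs, where Ear1 and Ear2 made up most of the sum. Itgax of that list, which dendritic cells also express, was 46.7 to 90.5 CPM in primary tumor TIMs against 0.330 to 1.38 CPM in FVB BM IMs and rose in all 3 comparisons. Marco reached 7.03 CPM in primary tumor, 28.3 CPM in LN and 12.1 CPM in lung TIMs, and Car4, Krt79, Atp6v0d2 and Cidec no more than 1.7 CPM in any library.

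PPARγ is the nuclear receptor that turns on fatty acid uptake and storage genes. Pparg was 28.9, 30.3, 24.6, 27.3 and 24.2 CPM in LN TIMs, 13.7, 11.1, 8.89, 10.3 and 17.4 CPM in primary tumor TIMs and 1.75, 2.61 and 3.76 CPM in FVB BM IMs. These 3 groups did not overlap. It was 5.17, 6.71 and 5.27 CPM in DBA2 BM IMs and 4.20, 5.25, 3.69, 5.01 and 4.16 CPM in lung TIMs, with overlap between these 2 groups. Pparg rose by 3.32 (SE 0.30, adjusted p = 2.24e-05) in LNs and 2.15 (SE 0.32, adjusted p = 0.000284) in primary tumors, and was higher in LN than in primary tumor TIMs by 1.15 (SE 0.18, adjusted p = 0.00325). In lungs it was −0.43 (SE 0.22, adjusted p = 0.182).

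Counted without Gpnmb, 7 of the other 9 members rose and 1 fell at an adjusted p under 0.05 in primary tumor TIMs, where 33.3% of the 14569 genes tested rose and 28.6% fell. In LN TIMs 7 rose and 1 fell, against 20.2% and 17.2% of 13273 genes. In LN4K1 lung TIMs 3 rose (Apoe, Cd36 and Plin2) and 2 fell (Lpl and Fabp5), against 13.9% and 11.0% of 13624 genes, and without lung TIM replicate 3 Abca1 passed as well. The other calls there were kept without that library, with log2 fold changes of 1.96 for Apoe, 2.03 for Cd36, 0.87 for Plin2, −1.53 for Lpl and −1.09 for Fabp5 (adjusted p from 6.35e-05 to 0.00262). In LNs the 8 calls were kept without replicate 1, at 6.20 for Cd36, 1.83 for Fabp4, −1.89 for Lpl, 4.19 for Abca1, 1.502 for Abcg1, 1.05 for Apoe, 0.91 for Plin2 and 3.29 for Pparg (adjusted p from 3.63e-07 to 0.00428). The median log2 fold change of the 9 members was 1.02, 1.38 and 0.20 in the 3 comparisons, against 0.08, −0.04 and 0.03 over all genes tested. Apoe, Cd36 and Plin2 rose in all 3 comparisons and Lpl fell in all 3, as did 7.94% (higher) and 7.01% (lower) of the 12782 genes tested in all 3. The TIM ranges did not overlap the BM range for 8, 8 and 6 of the 9 members, as for 58.1%, 42.9% and 34.8% of all genes. The primary tumor and LN comparisons share their FVB controls and are not independent.

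**Figure D3:**
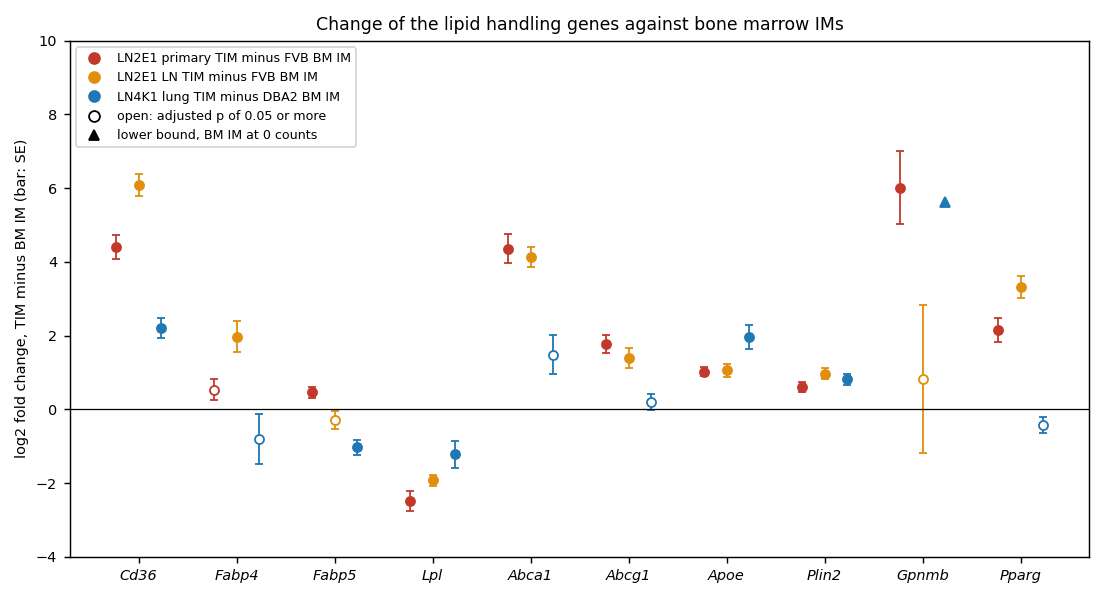
Log2 fold change with its SE for each gene in primary tumor TIMs, LN TIMs and LN4K1 lung TIMs against BM IMs of the same strain; filled points had an adjusted p under 0.05. Lpl is under 0 in all 3 comparisons, Cd36 over 2 in all 3, and the triangle for Gpnmb is a lower bound of 5.64 because DBA2 BM IMs had 0 counts.

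With the stricter thresholds of the study (adjusted p below 0.0001, more than 1 log2 unit of change), 4 members passed in primary tumor TIMs (Abca1, Apoe, Cd36 and Lpl), where 12.9% of genes passed in either direction. In LN TIMs Abca1, Cd36, Pparg and Lpl passed, against 5.71% of genes. None passed in lung TIMs with edgeR, where 2.97% of genes did. There, 6 of the 9 members other than Gpnmb had an unadjusted p under 0.05, as did 5047 of 13624 genes. DESeq2 with shrinkage passed 4 of the 10 members there. That count includes Gpnmb, so it can be 1 higher than a count of the other 9. Over all genes, DESeq2 with shrinkage passed 887 of 14668 with a rise and 701 with a fall. The edgeR counts of members were small enough to depend on single libraries. In primary tumors they were 1 without any one FVB library and 2 without primary tumor TIM replicates 2, 3 or 5, in LNs 2 without FVB replicate 2, and in lungs 1 without DBA2 replicate 1 or lung replicate 3.

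The primary tumor log2 fold change minus the LN4K1 lung log2 fold change was tested as an interaction. A positive difference passed for 13.2% of 15182 genes and a negative one for 13.3%. Abca1 (2.90, SE 0.63, adjusted p = 0.00426), Abcg1 (1.58, SE 0.33, adjusted p = 0.00307), Cd36 (2.21, SE 0.38, adjusted p = 0.00117), Fabp5 (1.52, SE 0.22, adjusted p = 0.000394) and Pparg (2.60, SE 0.38, adjusted p = 0.000396) had a positive difference. For Fabp5 this set a small rise in primary tumors (0.47) against a fall in lungs (−1.03). No member had a negative difference at this threshold. Apoe came closest at −0.92 (SE 0.34, adjusted p = 0.0545), and passed without DBA2 replicate 1, the highest Apoe library of its group (−1.50, adjusted p = 0.000364), and without lung TIM replicate 4 (−0.99, adjusted p = 0.0468). Lpl, at −1.25 (SE 0.51, adjusted p = 0.0792), fell further in primary tumors (−2.49) than in lungs (−1.22). It passed without lung TIM replicate 2 (adjusted p = 0.0373), lung TIM replicate 5 (0.0441) or primary tumor TIM replicate 1 (0.0443). Plin2 (−0.19, SE 0.21, adjusted p = 0.557) and Fabp4 (1.36, SE 0.68, adjusted p = 0.151) did not pass, and neither did Gpnmb (adjusted p = 0.326). The controls of the 2 strains differed too. DBA2 BM IMs were lower than FVB BM IMs in Fabp5 (−1.52, SE 0.16, adjusted p = 0.00079) and Fabp4 (−1.96, SE 0.49, adjusted p = 0.0253), and higher in Pparg (1.09, SE 0.33, adjusted p = 0.0467) and Lpl (0.49, SE 0.13, adjusted p = 0.0345), against 9.57% of 12905 genes lower and 11.5% higher. The strains' ranges did not overlap for 4 of the 9 members tested, as for 42.0% of all genes. With 3 libraries a strain the Pparg call was lost without any one of FVB replicates 1 or 2 and DBA2 replicates 1, 2 or 3 (adjusted p from 0.0839 to 0.139), the Lpl call without FVB replicates 1 or 2 or DBA2 replicates 1 or 3 (0.0542 to 0.133) and the Fabp4 call without FVB replicates 1 or 2 or DBA2 replicates 1 or 2 (0.0611 to 0.0764), while Apoe passed without DBA2 replicate 1 (−0.64, adjusted p = 0.0238). Only Fabp5 kept its call without each library in turn.

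Between the 2 sites of LN2E1, counted without Gpnmb, 3 of 9 members were higher in LN than in primary tumor TIMs and 1 was lower. This stood against 6.15% and 5.55% of 13488 genes. Cd36, Pparg and Fabp4 (1.43, SE 0.33, adjusted p = 0.0191) were higher, and Fabp5 was lower (−0.77, SE 0.19, adjusted p = 0.0226). Of the 9 members other than Gpnmb, the ranges of Cd36, Pparg, Fabp4 and Fabp5 did not overlap, as for 14.4% of all genes. All of these calls were kept without LN TIM replicate 1. The Fabp4 call was lost without primary tumor TIM replicate 5 (adjusted p = 0.0522) and the Fabp5 call without primary tumor TIM replicates 2, 3 or 4 (0.0596, 0.054 and 0.0574). Plin2 gave 0.35 (SE 0.14, adjusted p = 0.132), and passed without LN TIM replicate 3 (0.43, adjusted p = 0.0431). With the replicate number as a block, Cd36 and Pparg kept their calls, and neither Fabp4 (adjusted p = 0.0772) nor Fabp5 (0.0689) did. In the LN4K1 lung comparison the block left 2 calls, those of Apoe and Cd36, and not those of Lpl (0.0785), Fabp5 (0.0886), Plin2 (0.0547) and Gpnmb (0.0591).

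Of 116 other genes of lipid handling in 10 lists, 114 were in the table. In primary tumor TIMs 44 of 100 tested rose and 17 fell, in LN TIMs 34 of 97 rose and 8 fell, and in lung TIMs 23 of 99 rose and 3 fell. Over all genes tested, 33.3% rose and 28.6% fell in primary tumors, 20.2% and 17.2% in LNs and 13.9% and 11.0% in lungs, and each list's counts stand against these shares. The median log2 fold changes of the tested genes of the lists were 0.42, 0.30 and 0.17. The lists were chosen with earlier results of these data known.

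Receptors and carriers of lipid uptake rose at each site, with 9 of 11 tested in primary tumors, 8 of 11 in LNs and 7 of 10 in lungs, and none fell. The fatty acid transporter gene Slc27a1 rose by 2.21 (SE 0.16), 1.95 (SE 0.32) and 3.13 (SE 0.34) in primary tumors, LNs and lungs, and the scavenger receptor gene Msr1 by 1.47 (SE 0.14), 1.70 (SE 0.24) and 1.55 (SE 0.19). Mean Msr1 levels were 279 and 253 CPM in FVB and DBA2 BM IMs and 781, 906 and 780.5 CPM in primary tumor, LN and lung TIMs. In the list of lipoproteins and sterol efflux, 3, 4 and 4 of 7 genes rose and none fell. Pltp, the phospholipid transfer protein, was the only gene of that list to rise at all 3 sites, by 2.84 (SE 0.22), 3.83 (SE 0.30) and 2.001 (SE 0.31).

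Genes that build lipid droplets or coat them were mixed, with 6 of 12 higher and 3 lower in primary tumors and in LNs, and 4 of 14 higher and 1 lower in lungs. Soat2, which esterifies cholesterol, rose by 4.80 (SE 0.70), 4.82 (SE 0.70) and 4.50 (SE 0.51) from a mean of 0.326 CPM in FVB and 0.281 CPM in DBA2 BM IMs, and Agpat9, a glycerol-3-phosphate acyltransferase gene, by 5.39 (SE 0.49), 5.25 (SE 0.47) and 2.96 (SE 0.31). Dgat1, which makes triglyceride, fell at each site (−0.70, SE 0.11; −0.73, SE 0.15; −0.77, SE 0.12). Droplet breakdown had 3 of 9 genes higher, the same share as over all genes, and 1 lower in primary tumors, and 1 of 8 higher and 1 of 8 lower in LNs and in lungs. Among lysosomal lipid genes and the MiT factors, 5 of 14, 5 of 13 and 1 of 14 rose and 1, 0 and 0 fell; the acid ceramidase gene Asah1 rose at all 3 sites, by 0.35 (SE 0.08), 0.66 (SE 0.12) and 0.94 (SE 0.12).

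Nr1h3, which encodes LXRα, was the nuclear receptor gene that rose at all 3 sites, by 2.68 (SE 0.21, adjusted p = 6.14e-06), 3.08 (SE 0.27, adjusted p = 2.08e-05) and 2.16 (SE 0.46, adjusted p = 0.00792). Of its list of 13 receptors and partners, 5 of 10 tested rose and 1 fell in primary tumors, 4 of 10 rose and 1 fell in LNs, and 1 of 11 rose in lungs. Known LXR targets, which include 4 of the members and Nr1h3 itself, had 9 of 13 higher and 1 lower in primary tumors, 8 higher and 1 lower in LNs, and 4 higher and 1 lower in lungs, the lower one being Lpl each time. PPAR targets, which also include 4 of the members, had 7 of 12 higher and 2 lower, 4 of 11 higher and 2 lower, and 3 of 11 higher and 1 lower. Fatty acid oxidation leaned the other way in primary tumors, with 3 of 15 genes higher and 9 lower, against 1 higher and 2 lower in LNs and 3 higher and 1 lower in lungs. Slc25a20, the carnitine carrier of mitochondria, was the one gene of that list to rise at all 3 sites (0.72, SE 0.12; 1.08, SE 0.14; 1.07, SE 0.16). Fatty acid binding and activation genes other than the members had 2 of 9 higher and 1 lower in primary tumors, 1 of 9 higher in LNs and 1 of 8 higher in lungs.

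**Figure D4:**
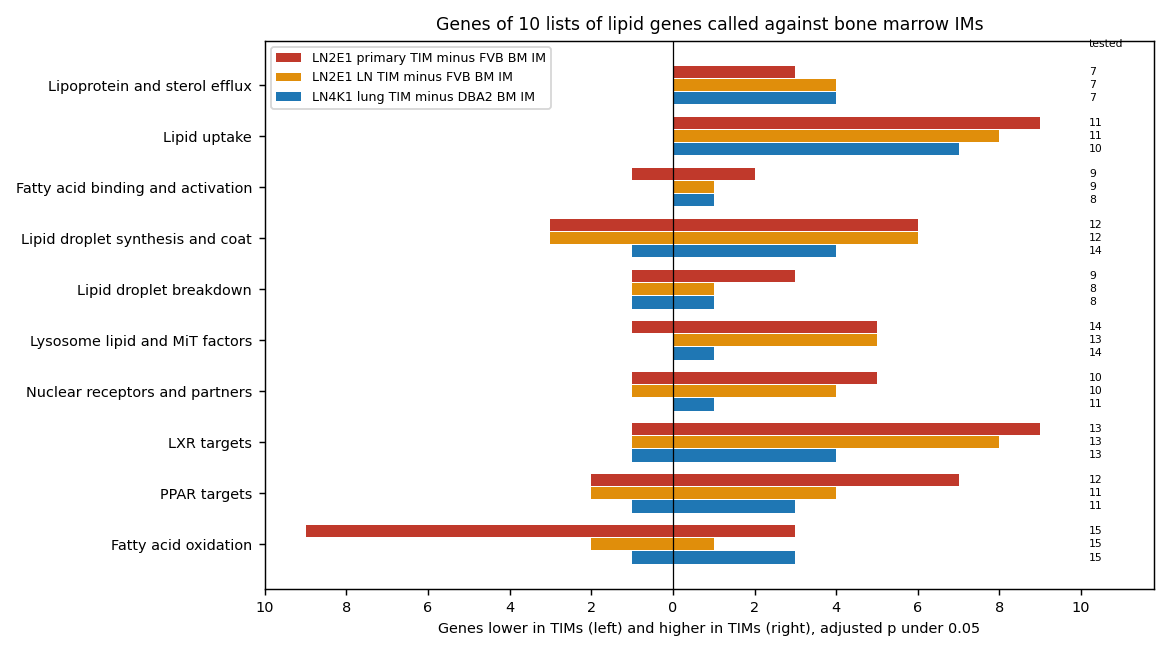
Number of genes in each of 10 lists of lipid genes that rose (right) or fell (left) in TIMs against strain-matched BM IMs at an adjusted p under 0.05, with the number tested at the right edge. Lipid uptake reaches 9, 8 and 7 higher with none lower, and fatty acid oxidation has 9 lower in primary tumors.

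Across the 21 libraries, which fall into 5 groups and so mainly carry the differences between groups, the members' log2 CPM profiles can be set beside those of 8016 genes with a mean log2 CPM above 3. The profile most like that of Cd36 was Eno3 (Pearson r = 0.992), and it was 0.817 after the group means were removed; the next was Treml4 (0.970 and 0.647). The closest genes to the other members, with both values in the same order, were Bcl2l11 for Abca1 (0.966 and 0.415), Gzf1 for Abcg1 (0.943 and 0.665), Mif4gd for Apoe (0.949 and 0.606), BC035044 for Lpl (0.959 and 0.668) and Agtrap for Fabp4 (0.918 and 0.0178). They were Gsr for Fabp5 (0.917 and 0.218), Cysltr1 for Plin2 (0.914 and 0.518), Dusp6 for Gpnmb (0.806 and 0.147) and Cd82 for Pparg (0.956 and 0.536). Most of these profiles were thus much less alike within groups than between them. The second were Smox, Sipa1l1, Orai1, Mtdh, Gdpd3, Sik1, Mpp1, C920009B18Rik and Coa5, in the same order. Among the members themselves, Abca1 was most like Abcg1 (0.920) and ran opposite to Lpl (−0.925), Cd36 went with Abca1 (0.902) and Pparg (0.894), and Apoe went with Plin2 (0.818). With group means removed these 5 values were 0.374, −0.479, −0.245, 0.147 and 0.293, each nearer 0 than the value over all libraries.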

How the data were processed

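RNA was sequenced from 21 sorted IM samples in 5 groups taken from the sample labels. The deposited file holds raw read counts per gene symbol for 23420 genes; the authors trimmed reads with BBDuk, aligned them to mm10 with BBMap, and, per the labels, used SAMtools 1.8 and featureCounts 1.5.2 (Subread), with counting settings not given in the sources used here. Libraries (SMART amplification, Nextera XT) carried no strand, and every column had a sample.

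Counts were tested with edgeR 4.0.16 (limma 3.58.1, R 4.3.3) quasi-likelihood on each comparison's own libraries, with TMM factors, the default filter (minimum count 10, minimum total 15), robust dispersion and Benjamini-Hochberg adjustment over all genes tested. Genes were said to rise or fall at an adjusted p under 0.05. SEs of log2 fold changes are approximate, being the change over the root of its F value. The fit was tested on simulated data with known changes. CPM used TMM factors over all 21 libraries, log2 CPM a prior count of 2, and levels per kb the longest coding transcript in GENCODE vM21. Single genes were compared between groups with two-sided exact permutation tests of mean log2 CPM, whose smallest p is 0.0357 for 5 libraries against 3, 0.1 for 3 against 3 and 0.00794 for 5 against 5. DESeq2 1.42.0, other filters and size factors, a fit of all groups, the replicate number as a block and leaving out each library were alternatives. Tables and figures used Python 3.11.15 with scipy 1.17.1, pandas 2.3.3, matplotlib 3.10.9 and numpy 2.4.6. Depth was 80772922 to 101043568 counts per library.

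The named genes were the 10 members, up to 2 rising and 2 falling genes of each list that passed in the same direction in all 3 TIM comparisons with the largest smallest change, and the 2 genes most like each member. Members, lists, motifs and tests were chosen with earlier results of these data known. Ly6g and Siglecf were not analysed here.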

Additional observations from a re-analysis of the deposited data

Results flagged for a closer look

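In LN TIMs, Gpnmb in replicate 3 (229 counts) stood apart from the other 4 libraries (0 to 20 counts), with a gap of 0.909 of the whole range against a limit of 0.71 for 5 libraries. It was the only value of this kind among 30 sets of 5 libraries, and chance gives about 1 in 20.

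The change in primary tumors and that in LN4K1 lungs differed, by the interaction test, for Abca1 (2.90), Abcg1 (1.58), Cd36 (2.21), Fabp5 (1.52) and Pparg (2.60). Each log2 fold change was higher in primary tumors than in lungs. For Fabp5 the 2 changes had opposite directions (0.47 and −1.03, both past the threshold). The models differ in cell line, strain, route and tissue, which cannot be told apart, and Fabp5 and Pparg also differed between the BM IMs of the 2 strains.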

How the results depend on the processing

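Counts of members here include Gpnmb, so each can be 1 higher than a count of the other 9 members. Against BM IMs, the number of members called at an adjusted p under 0.05 stayed within 1.5 times of that reported under every alternative, except that the replicate block left 2 in lungs. The number past the study's thresholds moved more. From 4 in primary tumors and 4 in LNs it went to 0 and 0 with the replicate block. It went to 7 and 7 with DESeq2 (shrunken or unshrunken). In lungs it went from 0 to 2 in a fit of all 5 groups and to 4 with DESeq2 (either form). Counts over all genes moved too, and with the block no gene passed in these comparisons. With DESeq2 shrunken, 2804 of 16675 genes passed with a rise and 1210 with a fall in primary tumors. In LNs 1576 and 839 of 14062 did, and in lungs 887 and 701 of 14668. In the fit of all 5 groups, 474 and 323 of 15357 did in lungs. Leaving out 1 library gave 1 to 3 members in primary tumors, 2 to 4 in LNs and 0 to 1 in lungs. The replicate block left 3 of 5 calls between LN and primary tumor TIMs, and leaving out 1 library gave 1 to 5 calls between the strains. Same-numbered libraries did not deviate together throughout (r from −0.30 to 0.30 over the pairs, over 0.1 in every pair of no comparison), so the numbers were not taken as pairs. Between LN TIMs and FVB BM IMs, r was 0.081 to 0.297 and 3 of 3 numbers correlated best with their own. That is a hint from the data only, and these groups were tumor-bearing and tumor-free mice. The match was 1 of 5 between LN and primary tumor TIMs, 2 of 3 in lungs, and 0 of 3 in primary tumors and between strains. The block lost Fabp5 in primary tumors (0.50, adjusted p = 0.119) and Pparg between strains (adjusted p = 0.0519), and the fit of all groups lost Fabp5 in primary tumors (adjusted p = 0.0599) and Lpl between strains (adjusted p = 0.487).

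Reversed signs were those of values near 0 and that of Gpnmb in LNs, whose value was imprecise (0.83, SE 2.002). Gpnmb in LNs was −2.84 with the block and −1.64 (without LN replicate 3) to 2.35 (without FVB replicate 2) when 1 library was left out. Apoe between LN and primary tumor TIMs was −0.0039 with DESeq2 size factors, −0.024 with a filter of 10 counts in every library, −0.0035 and −0.0037 with DESeq2 shrunken and unshrunken, and −0.13 to 0.089 when 1 library was left out. Between the strains, leaving out 1 library gave −0.43 to 0.15 for Abca1, −0.37 to 0.16 for Abcg1, −0.64 to 0.20 for Apoe and −0.31 to 0.056 for Cd36. Apoe passed the interaction in 5 alternatives without library removal (−1.01 to −0.88). The causes were not tested. Without TMM factors, 44 of 50 group means of CPM moved by less than 1 SD. Of 900 counts of genes rising or falling in the lists, 793 stayed within 1.5 times of that reported. DESeq2 shrinkage was not run for the interaction. With 3 control libraries, Gpnmb, Fabp4 and the strain comparison are the least certain results.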
